A study of Mus musculus with 15 samples.

Results

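Matricellular proteins and fibroblast activation markers were described here through 9 mouse genes, Spp1, Fn1, Tnc, Thbs1, Thbs2, Postn, Sparc, Acta2 and Lgals3, chosen by name among the 18217 gene symbols that the arrays measured. All 17 probes of these genes among the 41174 probes of the array were taken, and all 17 could be tested. The expression data came from 15 single-colour arrays, with 3 arrays in each of 5 groups. Cardiac allografts were B10 hearts placed into the abdomen of CBA mice and collected at POD5 (postoperative day 5), and hepatic allografts were B10.BR livers placed orthotopically into B10.D2 mice and collected at POD5 or POD8. Cardiac and hepatic controls were normal tissue by the labels and the methods and isografts by other parts of the study. Whether they had been transplanted is therefore not settled. Their strain was not given in the labels, and the name controls is used for both. Organ, strain combination and surgery changed together, so an organ difference cannot be told apart from them. No drug treatment was named for any group, and the labels do not say whether the 3 arrays of a group came from separate animals, so P-values measure the spread between arrays.

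Matricellular proteins are secreted into the extracellular matrix, where they change how cells adhere, migrate and respond to growth factors rather than serving mainly as structural support. Many of them are low in resting adult tissue and are made after injury by fibroblasts, smooth muscle cells, platelets and macrophages. Fibroblasts activated by transforming growth factor beta acquire contractile filaments that contain the actin encoded by Acta2 and are then called myofibroblasts. In the heart the main source of this matrix is the resident fibroblast, and in the liver the hepatic stellate cell.

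Levels are given as log2 of the processed signal after quantile normalization of all 15 arrays, and a gene with several probes is represented by the probe with the highest mean level unless another is named. A level compares arrays for 1 probe and not 1 gene with another. Differences were tested with limma, and a gene was called when its Benjamini-Hochberg adjusted P-value over 41003 probes was below 0.05. The summed marker signals separated the labelled organs. The sum of 7 hepatocyte markers was 325 to 531 in cardiac allografts and 647 to 6603 in cardiac controls, against 675422 to 708027 in hepatic controls. Alb, Apoa1 and Ttr were not well above background on any cardiac array, but other markers of the 7 were. The sum of 8 cardiomyocyte markers was 576 to 732 in hepatic controls and 1383 to 1747 in hepatic POD5 allografts, against 855302 to 934724 in cardiac controls. Myh6, Myl2, Ryr2 and Actn2 were not well above background on any hepatic array, but other markers of the 8 were. The 75th percentile of the processed signal before normalization lay between 394 and 1247 on cardiac arrays and between 92.1 and 478 on hepatic arrays, and arrays of 1 group correlated with r between 0.956 and 0.994. The first hepatic control had the lowest of these percentiles, 92.1, and all 9 members had their lowest hepatic control level on that array, as did 38.6% of all genes.

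Promoter sequence is printed for the 4 members that fell together in cardiac allografts, since these are the genes whose start sites a reader may want to compare. Each sequence holds the 250 bases before a RefSeq start site (assembly GRCm38.p6), 5′ to 3′ on the strand of the gene, with any match to TATAAA on either strand in capitals. The Spp1 window lies at chr5:104434861-104435110 on the plus strand, the Postn window of its second start site at chr3:54360857-54361106 on the plus strand, the Thbs2 window at chr17:14694263-14694512 on the minus strand and the Sparc window at chr11:55420081-55420330 on the minus strand.
Spp1: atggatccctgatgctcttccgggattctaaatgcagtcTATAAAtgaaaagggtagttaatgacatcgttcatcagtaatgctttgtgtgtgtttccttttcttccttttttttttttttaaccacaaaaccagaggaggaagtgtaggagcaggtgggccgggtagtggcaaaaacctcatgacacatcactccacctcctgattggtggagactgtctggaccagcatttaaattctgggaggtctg
Postn: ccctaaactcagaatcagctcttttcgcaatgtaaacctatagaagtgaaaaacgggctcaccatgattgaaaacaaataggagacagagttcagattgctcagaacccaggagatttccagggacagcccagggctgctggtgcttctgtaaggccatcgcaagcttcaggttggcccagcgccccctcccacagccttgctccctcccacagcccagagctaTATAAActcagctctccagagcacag
Thbs2: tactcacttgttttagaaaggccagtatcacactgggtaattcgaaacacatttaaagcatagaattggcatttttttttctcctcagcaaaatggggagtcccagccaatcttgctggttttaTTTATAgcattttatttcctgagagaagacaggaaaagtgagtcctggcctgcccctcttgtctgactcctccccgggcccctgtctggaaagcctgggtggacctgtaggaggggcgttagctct
Sparc: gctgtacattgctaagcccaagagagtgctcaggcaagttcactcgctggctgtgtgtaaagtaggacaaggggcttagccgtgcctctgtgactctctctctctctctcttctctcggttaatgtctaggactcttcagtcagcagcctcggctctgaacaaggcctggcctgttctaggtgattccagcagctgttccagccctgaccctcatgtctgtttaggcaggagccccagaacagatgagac

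Postn and Spp1 each have 2 start sites in the table, and the window shown is the one of each gene that holds a match, while the window of the other site holds none. The match in Postn began 26 bases before the start, that in Spp1 211 bases before it, and that in Thbs2 lay on the opposite strand 126 bases before it, whereas the Sparc window held none. TATAAA occurred in 12.4% of the 32851 promoter windows of the same length. The Postn and Spp1 windows were picked for their match, so they cannot be set against this share. Among the other members Tnc held TATAAA in both of its windows, beginning 126 and 205 bases before the start. Acta2 and Lgals3 held none. The strict form of the CArG box bound by serum response factor, CC and GG separated by 6 letters that are each A or T, was in 1.47% of all windows and in none of those of the 7 members with an entry. Sequences 1 letter away from this form were not counted, so the search does not show that Acta2, a known target of this factor, lacks such a site. The AP-1 element TGACTCA was in 4.46% of all windows and in none of the members' windows. The GC box GGGCGG was in 32.7% of all windows and, among members, in Tnc and Lgals3. All searches covered both strands, no matches of different motifs overlapped in the members, and Fn1 and Thbs1 had no entry.

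In cardiac allografts at POD5, 4 of the 9 members fell and none rose. The 4 were Postn, Spp1, Thbs2 and Sparc, with levels between 1.60-fold and 6.79-fold below the cardiac controls, and none of the 4 overlapped the controls, as for 29.1% of all genes in that direction. Over all 18169 genes read from their brightest probe, 38.1% were called in this comparison, 18.6% higher and 19.5% lower. The median difference of the 9 members was -0.67 on the log2 scale, beside -0.0032 for all genes. The other 5 members had differences between -0.67 for Fn1 and 0.76 for Lgals3 and did not pass the test. All 3 cardiac allografts were on 1 slide and all 3 cardiac controls on another, so the slide cannot be told apart from the group. The arrays read RNA of whole tissue, in which fewer cells of a type and less RNA per cell cannot be told apart.

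In hepatic allografts 1 member, Thbs1, rose at POD5 and at POD8, and none fell. At POD5 4.29% of all genes were called, made up of 3.41% with a higher and 0.881% with a lower level than the controls. The share called at POD8 was 6.41%, made up of 4.68% above and 1.73% below the controls, and both comparisons used the same 3 hepatic controls. The median of the 9 members was 1.01 at POD5 and 0.95 at POD8, beside -0.05 and -0.09 for all genes. At POD5 the allografts did not overlap the controls in 5 members, of which Thbs1, Sparc, Acta2 and Lgals3 were higher and Postn lower, against 16.4% of all genes higher and 18.2% lower. At POD8 they lay above the controls in 5 members, Tnc, Thbs1, Sparc, Acta2 and Lgals3, against 15.7% of all genes in that direction. No member was called between POD8 and POD5, and 0% of all genes were called there. An unadjusted limma P-value below 0.05 was found for 1 member and 2488 genes. The POD8 allografts lay clear above the POD5 allografts in Fn1 and Postn and clear below them in Sparc, against 8.44% and 12.8% of all genes. The POD5 allografts shared no slide with the POD8 allografts or with the hepatic controls. In these comparisons the slide cannot be told apart from the group. Some POD8 allografts and controls shared a slide.

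**Figure D1:**
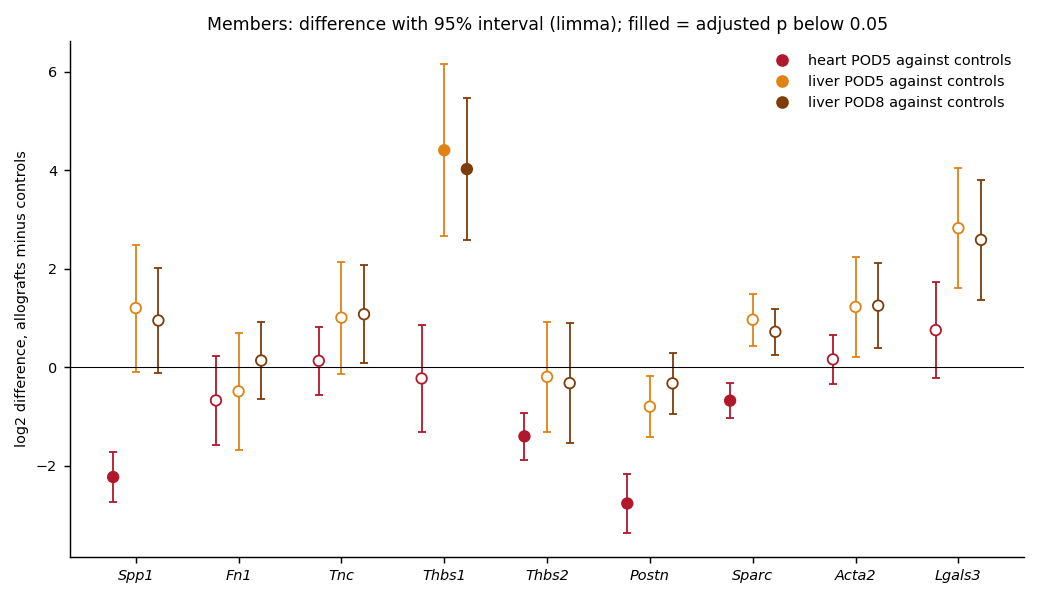
Log2 difference between allografts and controls for the 9 members, each from its brightest probe, with the 95% interval from limma. Filled points have a Benjamini-Hochberg adjusted P-value below 0.05. Postn, Spp1, Thbs2 and Sparc lie below 0 in the heart, and Thbs1 lies above 4 on both days in the liver.

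The cardiac and hepatic differences at POD5 were also compared with each other as an interaction over 12 arrays. Spp1, Thbs1, Postn and Sparc passed this test, all with the lower difference in the heart, against 17.4% of all genes, 9.54% lower and 7.91% higher. Thbs2, with -1.21 (SE 0.51), was not called for an organ difference (adjusted P = 0.142), so its fall in the heart was not shown to differ from its hepatic value.

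Among secreted glycoproteins that bind integrins, Spp1 encodes osteopontin, an adhesion protein and cytokine made by activated macrophages, injured epithelium and other cells. Its level was 15.86, 15.29 and 15.91 in the 3 cardiac controls and 13.42, 13.33 and 13.63 in the 3 cardiac allografts. Every allograft lay below every control, and the difference was -2.23 (SE 0.20, 95% interval -2.73 to -1.72), a 4.68-fold lower signal (adjusted P = 0.00189). The hepatic controls had 12.08, 13.01 and 13.50, the POD5 allografts 14.34, 13.27 and 14.59, and the POD8 allografts 13.47, 13.72 and 14.25. In the liver the groups overlapped on both days, since the third control lay above the second POD5 and the first POD8 allograft. The hepatic differences of 1.20 (SE 0.51, adjusted P = 0.267) and 0.95 (SE 0.42, adjusted P = 0.270) did not pass the test. The cardiac difference was lower than the hepatic one by 3.43 on the log2 scale, written as -3.43 (SE 0.58, adjusted P = 0.00655). Spp1 had its highest mean level in the cardiac control group and its lowest in the hepatic control group. The cardiac controls stood clear above the other 4 groups, and each of those overlapped the next in order of level.

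Markers of macrophages, a known source of osteopontin, are given beside this result. Their summed signal over 9 genes was 47753 to 57285 in cardiac allografts and 38739 to 61576 in cardiac controls. Of the 9, 1 rose and 2 fell, beside 18.6% and 19.5% of all genes. In the liver the sum was 3870 to 13069 in controls, 17715 to 24043 at POD5 and 26456 to 27637 at POD8, and none of the 9 was called on either day. The summed signal of 5 Kupffer cell markers, which mark the resident macrophages of the liver, was 26459 to 70461 in hepatic controls, 100039 to 118499 at POD5 and 121444 to 149333 at POD8, higher on every allograft than on every control. None of the 5 was called at POD5, and at POD8 Marco was called higher. The part of macrophages or Kupffer cells in the Spp1 levels, or in those of Lgals3 given further on, was not tested.

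Fibronectin, encoded by Fn1, is a scaffold of the early wound matrix and is also secreted into plasma by hepatocytes. The level was 11.998, 10.90 and 11.77 in cardiac controls and 11.17, 10.43 and 11.05 in cardiac allografts, so the groups overlapped. The cardiac difference was -0.67 (SE 0.36, adjusted P = 0.211). The hepatic controls had 12.72, 12.97 and 13.83, the POD5 allografts 13.06, 13.14 and 11.86, and the POD8 allografts 13.43, 13.24 and 13.27. The third POD5 allograft stood below the other hepatic arrays, and the same array was lowest of the 9 hepatic arrays on the second probe of Fn1, with 5.89 beside 9.50 and 9.71 in its group, and on the third, with 5.49 beside 7.25 and 7.38. That array shared a slide with the cardiac allografts and had the lowest 75th percentile of its group, 338. The part of the slide or of the dimmer signal was not tested. The hepatic differences of -0.49 (SE 0.47, adjusted P = 0.599) and 0.14 (SE 0.31, adjusted P = 0.817) did not pass the test. All 3 POD8 allografts were above all 3 POD5 allografts, with a difference of 0.62 (SE 0.37, adjusted P = 0.515).

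Tnc encodes tenascin-C, a hexameric glycoprotein that is characteristic of wound edges and inflamed tissue. Cardiac controls had 9.93, 9.67 and 9.84 and cardiac allografts 10.41, 9.40 and 10.02. The allografts lay on both sides of the controls, and the difference of 0.13 (SE 0.27, 95% interval -0.55 to 0.82) did not pass the test (adjusted P = 0.752). The hepatic controls had 4.21, 4.69 and 5.48, the first of them not well above background, against 5.41, 5.49 and 6.50 at POD5 and 5.59, 5.67 and 6.35 at POD8. The POD8 allografts all lay above the controls, and at POD5 the first allograft lay below the third control. The differences of 1.01 (SE 0.45, adjusted P = 0.285) and 1.08 (SE 0.39, adjusted P = 0.196) did not pass. The dimmer of the 2 Tnc probes was not well above background on any hepatic array.

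**Figure D2:**
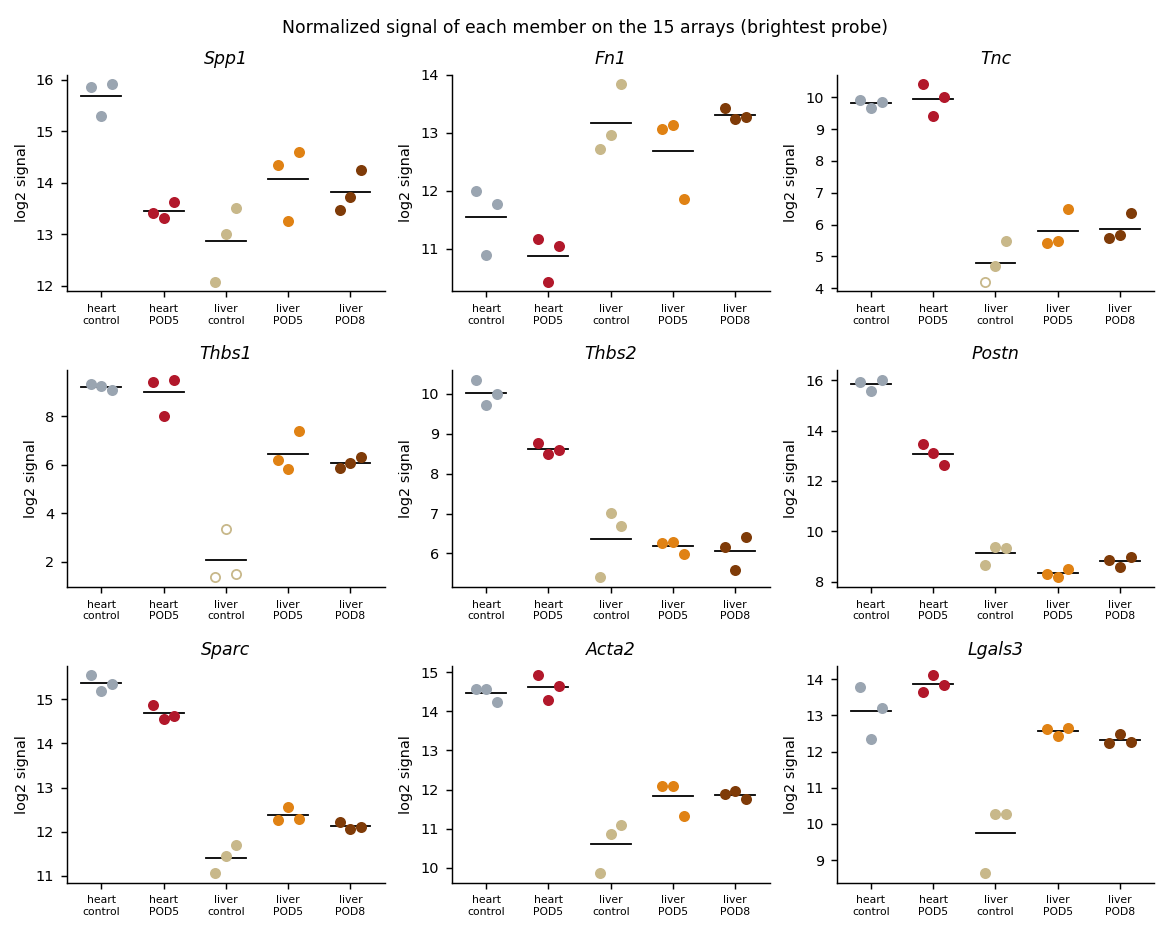
Normalized log2 signal of the brightest probe of each member on the 15 arrays, by group. Points are arrays, lines are group means, and open points were not well above background. The cardiac allografts lie below the cardiac controls without overlap for Spp1, Thbs2, Postn and Sparc, and all 3 hepatic controls are open for Thbs1.

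The thrombospondins Thbs1 and Thbs2 encode closely related secreted trimers, of which thrombospondin-1 is stored in platelets and can activate latent transforming growth factor beta. Thbs1 (chr2:118111876-118127133, GRCm38.p6) was the member that rose in the liver. The hepatic controls read 1.36, 3.34 and 1.48 and none was well above background, whereas the POD5 allografts had 6.20, 5.81 and 7.40 and the POD8 allografts 5.87, 6.07 and 6.31, all well above background. No hepatic allograft came near the controls. Since the control signal is only a bound, the brighter group was set against the lowest signal well above background on each control array, which put the POD5 allografts at least 4.40-fold higher and the POD8 allografts at least 3.37-fold higher. The fitted differences were 4.41 (SE 0.69, adjusted P = 0.0425) and 4.02 (SE 0.57, adjusted P = 0.0274).

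The second Thbs1 probe was also called, with 2.33 (SE 0.25, adjusted P = 0.0190) at POD5 and 2.38 (SE 0.17, adjusted P = 0.00474) at POD8. It was well above background on only 1 of 3 allografts at each day. Its hepatic allograft levels, at most 3.95, lay below the lowest signal well above background on every hepatic control array, 4.09 to 4.56. No bound on its fold could therefore be given. The third probe, with 0.81 (SE 0.30, adjusted P = 0.217) and 0.89 (SE 0.33, adjusted P = 0.204), was not called, and only 1 of the hepatic arrays had it well above background. The POD5 call of Thbs1 was lost without any 1 of 5 of the 6 arrays, the exception being the second control, with adjusted P-values between 0.045 and 0.158 and differences between 3.94 and 5.05. The POD8 call was lost without any 1 of the 3 allografts or without the third control (adjusted P between 0.0544 and 0.126). With normexp background correction of the median signals the differences were 1.25 at POD5, which was not called (adjusted P = 0.0603), and 1.05 at POD8, which was.

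In the heart Thbs1 was 9.33, 9.27 and 9.07 in controls and 9.44, 8.04 and 9.51 in allografts. The second allograft lay below the controls and the other 2 lay above them, and the difference of -0.23 (SE 0.43, 95% interval -1.30 to 0.85) did not pass the test (adjusted P = 0.727). That array also had the lowest Tnc and Fn1 levels of its group and the lowest 75th percentile of the cardiac arrays, 394, and 7 of the 9 members had their lowest allograft level on it, as did 31.3% of all genes. Among cardiac controls the second array had the lowest 75th percentile. On it 7 of the 9 members had their lowest control level, as did 36.7% of all genes. The cardiac difference of Thbs1 was below the hepatic one, with -4.63 (SE 0.86, adjusted P = 0.00935), a value that rests on hepatic controls at background and was -1.51 (adjusted P = 0.0575) with normexp correction. Platelet and megakaryocyte markers, which mark another source of thrombospondin-1, had a summed signal of 19215 to 22132 in cardiac controls and 1288 to 3795 in cardiac allografts. Of these markers 5 of 5 fell, beside 19.5% of all genes. In the liver their sum was 631 to 957 in controls, 591 to 910 at POD5 and 975 to 1378 at POD8, with 1 of 5 called higher at POD8, and their part in the Thbs1 levels was not tested.

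Thrombospondin-2, the product of Thbs2, is made by fibroblasts and smooth muscle cells and inhibits vessel growth. Its level was 10.35, 9.71 and 10.00 in cardiac controls and 8.78, 8.50 and 8.58 in cardiac allografts. The groups stood clear of each other, with a difference of -1.40 (SE 0.19, 95% interval -1.88 to -0.93), a 2.64-fold lower signal (adjusted P = 0.00537). The hepatic arrays had 5.40, 7.01 and 6.70 in controls, 6.26, 6.29 and 5.99 at POD5 and 6.17, 5.58 and 6.41 at POD8. All allografts lay within the range of the controls, and the differences of -0.19 (SE 0.45, adjusted P = 0.846) and -0.32 (SE 0.49, adjusted P = 0.721) did not pass the test.

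Of the collagen-binding proteins, Postn encodes periostin, a product of fibroblasts that aids collagen cross-linking and is a common marker of activated cardiac fibroblasts. Its cardiac difference was the largest in size among the 9 members, from 15.91, 15.59 and 16.01 in controls to 13.45, 13.12 and 12.65 in allografts. Every allograft lay more than 2 log2 units below every control, with a difference of -2.76 (SE 0.24, 95% interval -3.37 to -2.16), a 6.79-fold lower signal (adjusted P = 0.00176). The hepatic controls had 8.66, 9.39 and 9.35, the POD5 allografts 8.31, 8.18 and 8.51 and the POD8 allografts 8.87, 8.59 and 8.97. The POD5 allografts all lay below the controls and the POD8 allografts overlapped them, but neither -0.80 (SE 0.25, adjusted P = 0.162) nor -0.33 (SE 0.25, adjusted P = 0.487) passed the test. All POD8 allografts lay above all POD5 allografts, by 0.47 (SE 0.15, adjusted P = 0.323). The cardiac difference was below the hepatic POD5 difference, with -1.96 (SE 0.36, adjusted P = 0.00914).

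Sparc encodes osteonectin, a collagen-binding protein of fibroblasts and endothelial cells. It was 15.54, 15.18 and 15.36 in cardiac controls and 14.87, 14.55 and 14.63 in cardiac allografts. The groups did not overlap, and the difference of -0.68 (SE 0.14, 95% interval -1.03 to -0.32), a 1.60-fold lower signal, was the smallest of the 4 called (adjusted P = 0.0196). The second probe fell by 1.03 on the log2 scale (SE 0.19, adjusted P = 0.0139). The call on the brightest probe was lost without the third allograft, the first control or the third control (adjusted P from 0.0654 to 0.0706), with 75th percentile scaling (difference -0.55, adjusted P = 0.0983) and with normexp background correction (-0.47, adjusted P = 0.0522).

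In the liver the differences of Sparc were positive. The controls had 11.07, 11.46 and 11.70, the POD5 allografts 12.26, 12.57 and 12.30 and the POD8 allografts 12.22, 12.07 and 12.11. All 6 allografts lay above the 3 controls, yet 0.97 (SE 0.21, adjusted P = 0.0794) and 0.72 (SE 0.19, adjusted P = 0.103) did not pass the test. The POD5 levels were also all above the POD8 levels, by a difference of -0.25 for POD8 minus POD5 (SE 0.12, adjusted P = 0.463). The cardiac difference was below the hepatic one on both probes, with -1.64 (SE 0.26, adjusted P = 0.00550) on the brightest and -1.75 (SE 0.27, adjusted P = 0.00455) on the second.

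Acta2 encodes smooth muscle alpha-actin, present in vessel walls and gained by myofibroblasts. On the brightest probe the cardiac controls had 14.58, 14.57 and 14.24 and the cardiac allografts 14.92, 14.30 and 14.66, which overlapped (difference 0.16, SE 0.20, adjusted P = 0.571). The second probe had 14.62, 13.56 and 14.06 in controls against 13.35, 13.17 and 13.19 in allografts, a difference of -0.84 (SE 0.28, adjusted P = 0.0732). The third had 9.73, 9.02 and 9.38 against 8.04, 7.64 and 7.78, which fell by 1.55 on the log2 scale (SE 0.22, adjusted P = 0.00602). The 3 probes thus disagreed in the heart: no overlap and lower on 2 of them, overlap on the brightest. Actin genes have near-identical coding sequences, the brightest probe may read more than 1 of them, and this was not tested.

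In the liver all 3 Acta2 probes gave positive differences. On the brightest probe the controls had 9.88, 10.88 and 11.10, the POD5 allografts 12.09, 12.10 and 11.34 and the POD8 allografts 11.90, 11.97 and 11.75. No allograft overlapped a control, but neither 1.23 (SE 0.41, adjusted P = 0.183) nor 1.25 (SE 0.34, adjusted P = 0.115) passed the test. Without the first hepatic control the POD8 difference was 0.88 and was called (adjusted P = 0.0384). The cardiac minus hepatic difference was -1.06 (SE 0.47, adjusted P = 0.163) on the brightest probe, -1.82 (SE 0.51, adjusted P = 0.0421) on the second and -2.68 (SE 0.59, adjusted P = 0.0181) on the third, the last of which was not well above background in hepatic controls.

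**Figure D3:**
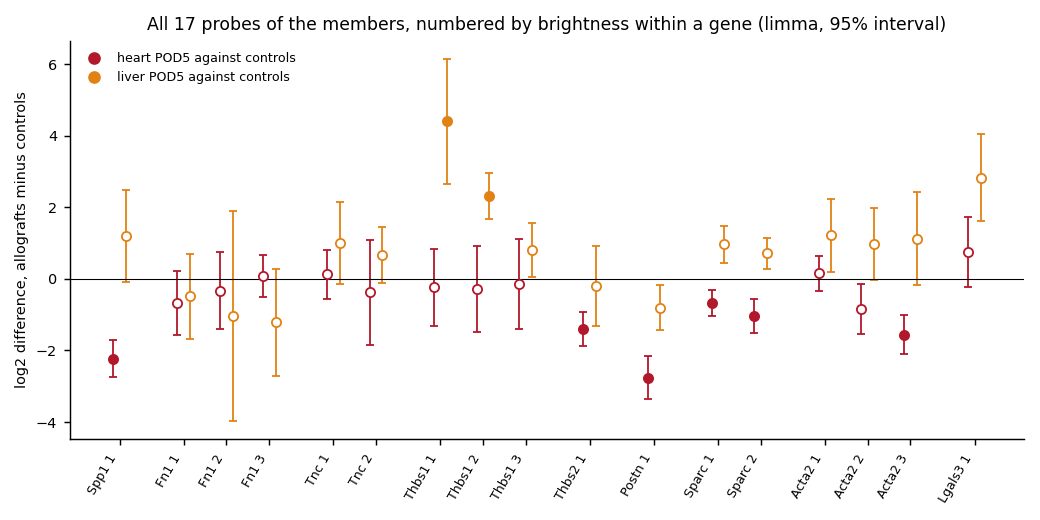
Log2 difference against controls at POD5 for all 17 probes of the members, numbered by brightness within a gene, with the 95% interval from limma; filled points have an adjusted P-value below 0.05. In the heart the 3 Acta2 probes run from 0.16 to -1.55, and in the liver the Thbs1 probes run from 4.41 to 0.81.

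Lgals3 encodes galectin-3, a carbohydrate-binding protein abundant in macrophages that also acts on fibroblasts. The cardiac controls had 13.78, 12.34 and 13.22 and the cardiac allografts 13.65, 14.10 and 13.85. The first control lay among the allografts, and the difference of 0.76 (SE 0.39, adjusted P = 0.195) did not pass the test. In the liver the controls had 8.65, 10.28 and 10.29, the POD5 allografts 12.61, 12.43 and 12.65 and the POD8 allografts 12.23, 12.48 and 12.27. Every allograft lay above the highest control, and the mean signal was 7.09-fold that of the controls at POD5 and 6.01-fold at POD8. The differences of 2.82 (SE 0.48, 95% interval 1.61 to 4.04) and 2.59 (SE 0.48, 95% interval 1.36 to 3.81) missed the threshold by a narrow margin, with adjusted P-values of 0.0501 and 0.0504. Leaving out the first hepatic control, the array with the lowest 75th percentile, gave 2.28 (adjusted P = 0.0198) at POD5 and 2.04 (adjusted P = 0.00793) at POD8, both called. The cardiac difference was lower by an amount of -2.07 (SE 0.65), which was not called (adjusted P = 0.0627), though it was without the second cardiac control (-2.46, adjusted P = 0.0418) or the third hepatic control (-2.34, adjusted P = 0.0445).

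**Figure D4:**
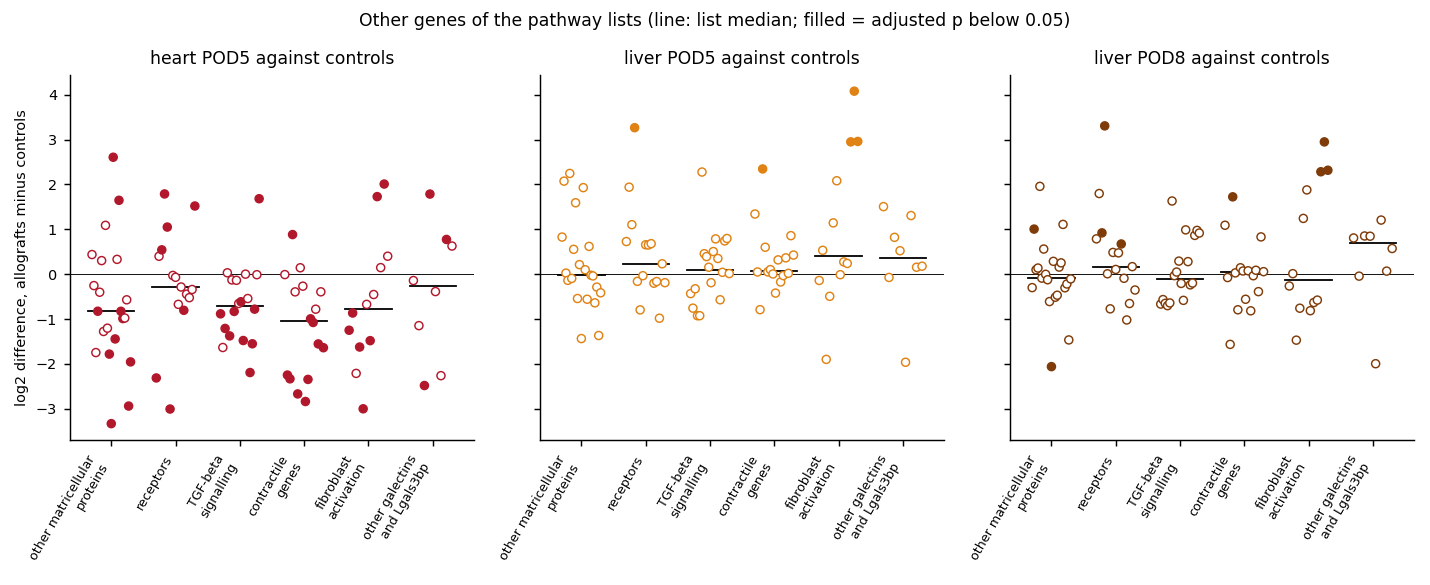
Log2 difference against controls for the other genes of the matricellular, receptor, TGF-beta, contractile, fibroblast activation and galectin lists. Points are genes read from their brightest probe, lines are list medians, and filled points have an adjusted P-value below 0.05. In the heart most filled points lie below 0, and in the liver the few filled points lie mostly above 0.

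Related genes were counted in 6 lists, to be read beside the shares of all genes. In the heart 18.6% were called higher and 19.5% lower. In the liver 3.41% were called higher and 0.881% lower at POD5, and 4.68% and 1.73% at POD8. No list was tested against these shares. Among 21 other matricellular proteins, 2 rose and 8 fell in cardiac allografts, with a list median of -0.83. The matricellular proteins that fell most were Sparcl1, a relative of Sparc expressed by vessels (-3.33, SE 0.17), Tnxb, a tenascin of connective tissue (-2.94, SE 0.32), and Vtn, which encodes vitronectin (-1.96, SE 0.34). Spock1, a proteoglycan gene, rose at least 2.60-fold from controls below background, and Tgfbi, a secreted protein induced by transforming growth factor beta, rose by 1.65 (SE 0.39). In the liver 0 of 21 were called at POD5 by limma, and at POD8 Ccn2, connective tissue growth factor, rose 2.01-fold (SE 0.14 on the log2 scale) and Sparcl1 fell by 2.06 (SE 0.33) on the log2 scale.

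Of 15 receptors for these proteins, 4 rose and 3 fell in the heart, beside 18.6% of all genes higher and 19.5% lower. Itga4, the alpha 4 integrin subunit of leukocytes that binds osteopontin and fibronectin, rose by 1.79 (SE 0.36) in the heart and by 3.26 (SE 0.24) and 3.30 (SE 0.22) in the liver at POD5 and POD8. Sdc4, a syndecan that binds fibronectin (1.52, SE 0.22), and Itga5, the alpha 5 subunit of the fibronectin receptor (1.05, SE 0.18), also rose in the heart. Itga8, an integrin subunit of mesenchymal cells (-3.01, SE 0.62), Cd36, a thrombospondin receptor and fatty acid transporter (-2.31, SE 0.21), and Itgb5 (-0.81, SE 0.12) fell there. In the liver 1 of 15 rose at POD5, and 3 rose at POD8, where Cd47, another thrombospondin receptor (0.92, SE 0.17), and Itgb3 (0.67, SE 0.11) joined Itga4.

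For TGF-beta signalling, 1 of 18 genes rose and 9 fell in the heart, with a median of -0.72, and none was called in the liver on either day. Of all genes 18.6% rose and 19.5% fell in the heart, and in the liver 4.29% were called at POD5 and 6.41% at POD8. Tgif1, a repressor of the pathway, rose by 1.68 (SE 0.18), while the ligand gene Tgfb3 (-2.19, SE 0.16), the receptor gene Tgfbr1 (-1.55, SE 0.18) and the inhibitor gene Smad7 (-1.48, SE 0.27) fell. Among 16 contractile genes of smooth muscle and myofibroblasts, 1 rose and 9 fell in the heart, with a median of -1.04. Myh11 (-2.84, SE 0.62), Lmod1 (-2.67, SE 0.28) and Myl9 (-2.35, SE 0.33), all components or regulators of smooth muscle filaments, fell. Cnn2, a calponin that leukocytes also express, rose by 0.88 (SE 0.16) in the heart, 2.35 (SE 0.30) in the liver at POD5 and 1.72 (SE 0.18) at POD8, and it was the 1 contractile gene called in the liver.

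Of 12 fibroblast activation genes, 2 rose and 5 fell in the heart, with a median of -0.77, beside 18.6% of all genes higher and 19.5% lower. Fap, a surface protease of activated fibroblasts (-3.00, SE 0.27), Ddr2, a collagen receptor (-1.62, SE 0.23), and Pdgfra, a receptor of fibroblasts (-1.48, SE 0.19), fell, while Thy1 (2.01, SE 0.24) and Runx1 (1.73, SE 0.23) rose. In the liver Thy1, Vim and S100a4 rose on both days and none of the 12 fell. Their POD5 differences were 4.08 (SE 0.35), 2.96 (SE 0.39) and 2.95 (SE 0.26), and their POD8 differences were 2.95 (SE 0.20), 2.32 (SE 0.36) and 2.28 (SE 0.19). All of these are also expressed by leukocytes, Thy1 by mouse T cells in particular. Among 7 other galectin genes and Lgals3bp, the heart had higher Lgals3bp (1.79, SE 0.23) and Lgals8 (0.77, SE 0.16) and at least 3.61-fold lower Lgals2, and the liver had 0 called by limma on both days.

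Interaction calls of the lists are given beside those of all genes, of which 9.54% were called lower and 7.91% higher. No list was tested against these shares. The interaction was called lower for 7 of 16 contractile genes, 7 of 12 fibroblast activation genes, 5 of 18 TGF-beta genes, 4 of 21 other matricellular genes, 2 of 15 receptors and 2 of 8 galectin genes. It was called higher for 1 fibroblast activation gene and 1 receptor.

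**Figure D5:**
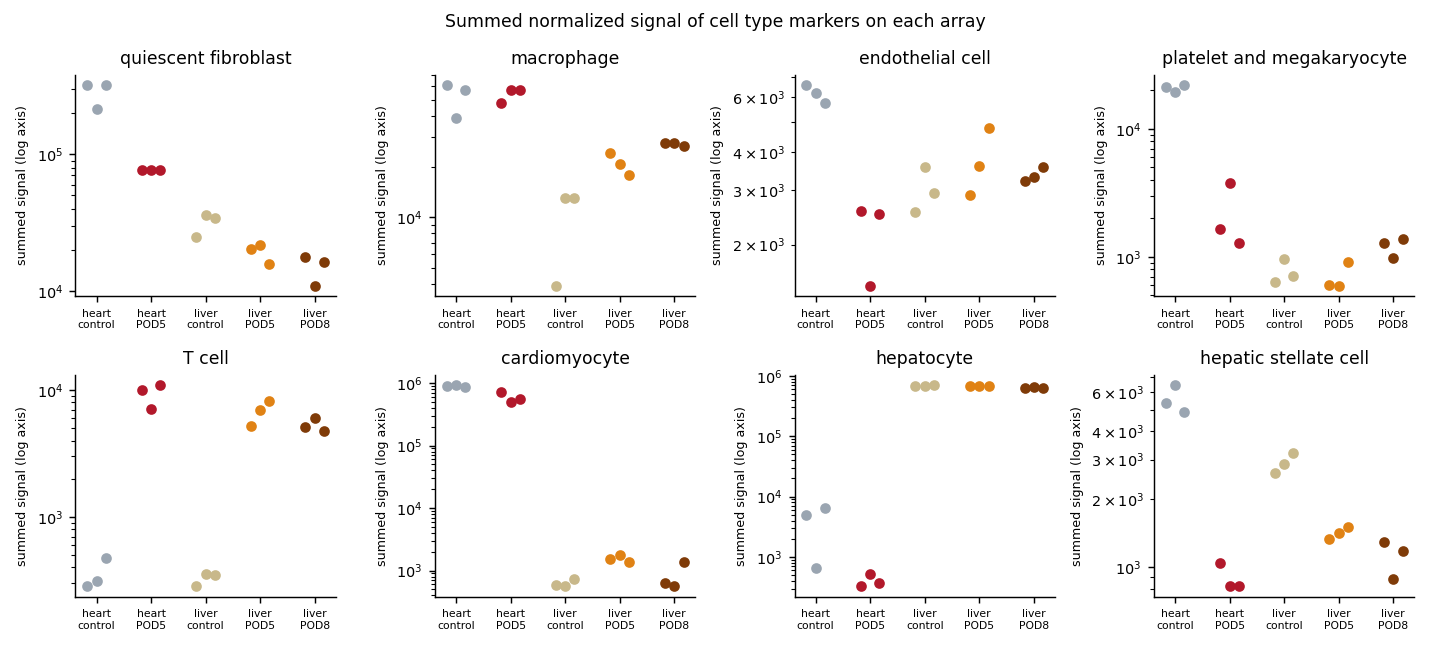
Summed normalized signal of the marker genes of 8 cell types on each of the 15 arrays, by group, on log axes. The quiescent fibroblast sum is 76185 to 76607 in cardiac allografts and 212931 to 323992 in cardiac controls, and the T cell sum is higher in all 9 allografts than in the 6 controls.

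Markers of cells that make or respond to these proteins went different ways in the heart. Of all genes, 18.6% were called higher there and 19.5% lower. Macrophage sums overlapped between cardiac allografts and controls. Of 6 quiescent fibroblast markers 5 fell and none rose, and their summed signal was 76185 to 76607 in allografts against 212931 to 323992 in controls. Of 4 endothelial markers all 4 fell, with sums of 1467 to 2569 against 5775 to 6602. Of 8 cardiomyocyte markers 3 fell, with sums of 491530 to 723222 against 855302 to 934724. T cell markers went the opposite way, with 5 of 5 higher and sums of 7037 to 11000 against 282 to 470. The part of any of these cells in the fall of Postn, Spp1, Thbs2 and Sparc was not tested.

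Of all genes in the liver, 3.41% were called higher and 0.881% lower at POD5, and 4.68% and 1.73% at POD8. In the liver 3 of 5 T cell markers rose at each day. Their sums were 285 to 355 in controls, 5186 to 8282 at POD5 and 4801 to 6007 at POD8. Of 6 quiescent fibroblast markers 0 were called by limma on both days, and their sums were 24710 to 36017 in controls, 15585 to 21740 at POD5 and 10813 to 17634 at POD8. Of 5 hepatic stellate cell markers 1, Reln, fell on both days, and the sums were 2621 to 3207, 1331 to 1501 and 888 to 1292. The stellate sums were lower in all 6 allografts than in the hepatic controls. In cardiac controls the same markers summed to 4892 to 6436, so the list does not mark stellate cells alone. The part of these cells in the Thbs1 levels was not tested.

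Across the 5 group means the level patterns separated the members. Tnc, Acta2, Thbs2, Postn and Sparc were higher in every cardiac array than in every hepatic array, Thbs1 likewise, whereas Fn1 was higher in the hepatic arrays except that the third POD5 allograft lay within the cardiac control range. The named genes nearest to each member, by the root mean square difference of the 5 centred group means among 14931 genes, differed from member to member. For Lgals3 they were Cxcr4 (0.12), Cmtm2a (0.13) and Cd48 (0.14). For Postn they were Amph (0.21), Aoc3 (0.27) and Csdc2 (0.31), and for Spp1 Shisa2 (0.14), Fzd10 (0.15) and Hecw2 (0.17).

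The nearest genes to Thbs1 were farther off, 1500009L16Rik (0.35), Bcat1 (0.38) and Chl1 (0.44), and its hepatic control mean of 2.06 was at background. For Thbs2 the nearest were Rassf9 (0.07), Tmem119 (0.09) and Nbl1 (0.09), for Sparc Bzw2 (0.10), Lhfp (0.13) and Boc (0.14), and for Fn1 Gigyf2 (0.07), Lpgat1 (0.08) and Prxl2a (0.08). For Tnc they were Lmo1 (0.10), Calhm5 (0.12) and Actg2 (0.14), the last a smooth muscle actin gene, and for Acta2 Lbh (0.08), Ift57 (0.13) and Dpep2 (0.15). Some of the means lay below the lowest signal well above background on their arrays. Amph, near Postn, had 1.22 to 1.74 in the hepatic groups, where that lowest signal was at least 2.915. Distances that include such means rest on signals at background. These are descriptions over 5 means and were not tested.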

How the data were processed

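Total RNA of mouse heart and liver was hybridized with Cy3 to single-colour Agilent arrays, 3 for each of 5 groups taken from the sample labels. The authors deposited a processed intensity for each spot, which the scanner software (Feature Extraction 10.5.1.1) had corrected for background and not normalized between arrays, and the deposited intensities include median spot and background signals, used in 1 alternative. Deposited flags for outlier spots and for signal well above background were used as marks.

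From these, spots marked as outliers (47 to 113 per array) were left out, logs were taken as in the methods and expressed in log2, the spots that repeat a probe were averaged, and quantile normalization was run over the 15 arrays at once. Of 41174 probes 41003 had a value on every array, and 26690 (64.8%) were named through RefSeq accessions of assembly GRCm38.p6. The 9 members and the gene lists were chosen with earlier results of these data known. Of each list, up to 3 higher and 3 lower called genes with the largest difference were named, with all members and the 3 genes nearest to each. A probe counted as well above background when at least 0.5 of its spots did.

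Comparisons were fitted with limma 3.58.1 in R 4.3.3 on 6 arrays each (12 for the interaction), with Benjamini-Hochberg adjustment over all probes at 0.05, and the scripts were tested on simulated data. The number of arrays limits the precision. The packages data.table (1.17.8) and matplotlib (3.10.9, in Python 3.11.15) were also used. Alternatives were other normalizations and background corrections, other probe rules, priors and fits, blocks for replicate number and slide, the methods' t-test and standardized fold change (SFC, bins of 1000 probes), Bonferroni adjustment and leaving out each array. The values within the slide shared by POD8 allografts and controls, and those of dimmer probes, were chosen later, after seeing the data.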

Additional observations from a re-analysis of the deposited data

Results flagged for a closer look

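For 4 members the cardiac difference at POD5 was not the same as the hepatic one, by limma's interaction test with Benjamini-Hochberg adjustment. The cardiac minus hepatic difference was -3.43 for Spp1 (adjusted P = 0.00655), -4.63 for Thbs1 (adjusted P = 0.00935), -1.96 for Postn (adjusted P = 0.00914) and -1.64 for Sparc (adjusted P = 0.00550). Spp1 and Sparc fell in the heart with positive hepatic values, Thbs1 rose in the liver, and Postn fell in the heart with a hepatic difference that was also negative but not called. Organ and the donor and recipient strains changed together. Slides differed between the groups too, except that the third hepatic POD5 allograft shared the slide of the cardiac allografts. The parts of organ, strain and slide cannot be told apart.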

How the results depend on the processing

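Of 1034 alternative values of the 45 member differences, 912 kept their direction and side of the threshold, 46 kept the direction and lost the call, 41 kept it and gained one, and 35 changed sign. In the heart (4 members called) the count was 3 with 75th percentile scaling or normexp, without Sparc, 5 with the mean over probes, with Acta2, and 0 with Bonferroni adjustment of limma, of the methods' t-test and of SFC, and 3 to 4 when an array was left out. In the liver at POD5 (1 called) it was 2 with quantile normalization within the comparison or the organ, 75th percentile scaling, normexp, a filter on dim probes, the mean over probes and a trended robust prior, 5 in a joint fit of the 5 groups (3323 of all 18169 genes) and 4 with the unadjusted t-test (3964 genes), against 780 genes in the reported fit. It was 0 with the slide as a random block, the adjusted t-test (Benjamini-Hochberg or Bonferroni) and Bonferroni limma, and 0 to 1 when an array was left out. At POD8 (1 called) it was 2 with quantile normalization within the comparison or the organ, normexp, the filter, the prior and the slide block, 3 with 75th percentile scaling, 4 in a joint fit of the 5 groups (2629 genes) and 4 with the unadjusted t-test (4337 genes), against 1165 genes. It was 0 with the adjusted t-test and Bonferroni limma, 0 within the slide that held both groups, where 0 of all 18169 genes were called by limma, and 0 to 3 when an array was left out. Within that slide (2 allografts and 2 controls) Thbs1 differed by 3.62 (adjusted P = 0.154) and Lgals3 by 2.89 (adjusted P = 0.162). Between POD8 and POD5 the unadjusted t-test called 1 member, and for the interaction (4 called) Bonferroni adjustment of the t-test or limma called 0. Normexp called 3 there, without Thbs1. The count was 5 with 75th percentile scaling, the filter, the joint fit and the unadjusted t-test, with Lgals3 added, and 5 with the mean over probes, with Acta2 added (-1.86, adjusted P = 0.0135). The cause of these changes was not tested.

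With the replicate number as a block, 5 members were called in the heart (4702 of 18169 genes), 0 in the liver on either day (0 of 18169 genes by limma on both) and 4 for the interaction (2544 genes). Arrays of 1 number did not deviate together (r from -0.123 to 0.0438), so the numbers were not taken as pairs.

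Scaling to the 75th percentile shifted the median difference of all genes to 0.21 in the heart, -0.24 at POD5 and -0.35 at POD8 in the liver, and 0.32 for the interaction. The share of called genes that were higher went from 48.9% to 65.4% in the heart, 79.5% to 78.2% and 73% to 29.6% in the liver, and 45.3% to 71.7% for the interaction.

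Sign changes were in differences that were not called. In the heart Tnc was -0.12 as a mean over probes and -0.38 on its second probe, Acta2 -0.74 (adjusted P = 0.0414) as a mean, -0.84 on the second and -1.55 on the third probe, Fn1 0.083 on the third probe and Thbs1 0.18 with SFC. In the liver Thbs2 was 0.059 with normexp and Fn1 0.092 with SFC at POD5, and Fn1 was -0.18 with 75th percentile scaling at POD8. For POD8 minus POD5, Tnc was -0.036 with 75th percentile scaling and -0.089 as a mean over probes, and Acta2 -0.043 with normexp, -0.0036 as a mean and -0.20 with SFC. For the interaction Fn1 was 0.16 with 75th percentile scaling, 0.60 as a mean and 0.16 with the slide block. Leaving out an array gave ranges of -0.10 to 0.40 for Tnc and -0.48 to 0.25 for Thbs1 in the heart, -0.68 to 0.13 for Thbs2 at POD5, -0.089 to 0.47 for Fn1 at POD8, and -0.60 to 0.042 for Fn1 in the interaction. For POD8 minus POD5 the ranges were -0.65 to 0.011 for Spp1, -0.17 to 0.42 for Tnc, -0.71 to 0.082 for Thbs1, -0.31 to 0.11 for Thbs2 and -0.23 to 0.15 for Acta2.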

Other observations

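Markers of other cells in the tissue complete the picture of the arrays. In cardiac allografts 3 of 5 Kupffer cell markers fell, beside 19.5% of all genes. The sum of the 5 was 1392 to 8847 in allografts and 961 to 4398 in controls. Among those that fell were Vsig4 (-4.57) and Cd5l (-3.99), both also found in resident macrophages outside the liver. The 2 others were not called, and the highest difference of the list was 1.90. Clec4f was not well above background on any cardiac allograft. The macrophage marker Mrc1 fell by 3.23 while Fcgr1 rose by 1.44 on the log2 scale. Of 5 hepatic stellate cell markers, 3 fell in the heart, including Rgs5, which also marks pericytes (-3.13), with the sum of the 5 at 819 to 1038 in allografts and 4892 to 6436 in controls. Of 4 cholangiocyte markers 3 fell in the heart and none was called in the liver by limma. Of 3 erythroid markers 1 fell in the heart. These values were computed on the same arrays as the members, and no relation between them was tested.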
